A study of Danio rerio with 8 samples.

Results

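The comparison set the GFPlow fraction of fractured zebrafish scales, labelled as osteoclast (OC) precursors, against the midpoint of the mCh+ fraction, labelled as osteoblasts (OBs), and the GFPhigh fraction, labelled as mature OCs. It took in the 6 cell libraries of the 8 libraries in the series, and the 2 libraries of OB-derived extracellular vesicles (EVs) were not part of it. The mCh+ values were the same in both deposited libraries for all 32057 genes, whereas the GFPlow libraries shared 10858 values and the GFPhigh libraries 12646, so mCh+ was counted as 1 library and 5 distinct libraries were compared. Of the 32057 genes, 13518 reached 1 RPM, a unit of reads scaled to the library's total, in at least 2 of these libraries and were tested, and a further 1626 reached 1 RPM in only 1 library and were not. For each gene the question was whether the level in GFPlow lay between the levels of the other fractions or outside both.

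All fractions came from adult fish whose genotype is labelled wild type and which carried both trap:GFP and osterix:mCherry, reporters driven by upstream sequence of the zebrafish trap gene (acp5a) and of the medaka osterix gene (sp7). Scales were cut and taken 1 day after the fracture, digested to single cells and stained with the DNA dye Hoechst. Nucleated cells of high Hoechst signal were gated as weak GFP with mCherry (GFPlow, 2 libraries), mCherry without GFP (mCh+, 1 distinct library) and strong GFP (GFPhigh, 2 libraries). No unfractured group was sequenced among these libraries, so every value describes cells after injury. The gates follow reporter brightness and not cell identity, and the GFPlow gate overlaps the mCherry signal that defines mCh+. In such bulk samples, fewer cells of a type and less RNA per cell cannot be told apart.

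OCs are the bone-resorbing cells of the body and arise from the monocyte and macrophage lineage under macrophage colony-stimulating factor (M-CSF) and receptor activator of NF-kB ligand (RANKL), which stromal and osteoblastic cells provide. A mature OC fuses with its neighbours, pumps protons through the vacuolar ATPase (V-ATPase) onto the bone surface and secretes tartrate-resistant acid phosphatase and cathepsin K into the acid space, whereas the OB lays down and mineralises a collagen matrix. The elasmoid scale of teleost fish is a dermal bony plate that holds both cell types and the skin's pigment cells beside them, and it regrows throughout adult life.

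Reads assigned to genes were estimated for each library from the RPM value of 1 read, itself inferred from the 2-decimal RPM values. The totals are therefore approximate. By these estimates the GFPlow libraries were the deepest, with 24435511 and 24344420 reads. The estimates were 14948034 in mCh+ and 12946256 and 11814593 in GFPhigh. In these libraries 3 reads were worth 0.123 RPM in both GFPlow libraries, 0.201 RPM in mCh+, and 0.232 and 0.254 RPM in GFPhigh. A value below that level was not distinguishable from 0 at this depth, counting error alone being considered. Single markers of other cell types were listed at 0 in all 5 libraries, namely lyz (neutrophil), lck (T cell), cd79b (B cell) and mpz (glia), as was bglap, the osteocalcin gene of mature OBs. So were 3 genes of the respiratory chain that every cell uses, ndufs4, ndufa12 and ndufb5, so a listed 0 does not show that a gene was not expressed. Sums over the marker lists of several other cell types are given at the end. The GFPlow fraction held the OC genes acp5, ctsk and nfatc1 at levels under those of GFPhigh, and the marker set of macrophages at the highest level of the 3 fractions, as given below. It is called by its gate.

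Genes above both other fractions far outnumbered genes below both. Each GFPlow mean was compared with each of the other means on the log2(RPM + 1) scale by limma, and a gene was called outside when the larger of the 2 p-values, adjusted over all 13518 genes, was under 0.05 and both differences passed 1 in the same direction. By this rule 173 genes (1.28% of those tested) were above both mCh+ and GFPhigh, and 3 (0.0222%) were below both. A gene was called between when it differed from both in opposite directions, which held for 53 genes highest in GFPhigh (0.392%) and 100 genes highest in mCh+ (0.74%). In the single contrast of GFPlow with the midpoint, 530 genes (3.92%) were higher and 33 (0.244%) lower at an adjusted p under 0.05 and a difference past 1. The count above both rested on both GFPlow libraries: it was 0 without either of them, where 362 and 402 genes still had an unadjusted p under 0.05, and 2 when the EV libraries entered the fit (363 at an unadjusted p).

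**Figure D1:**
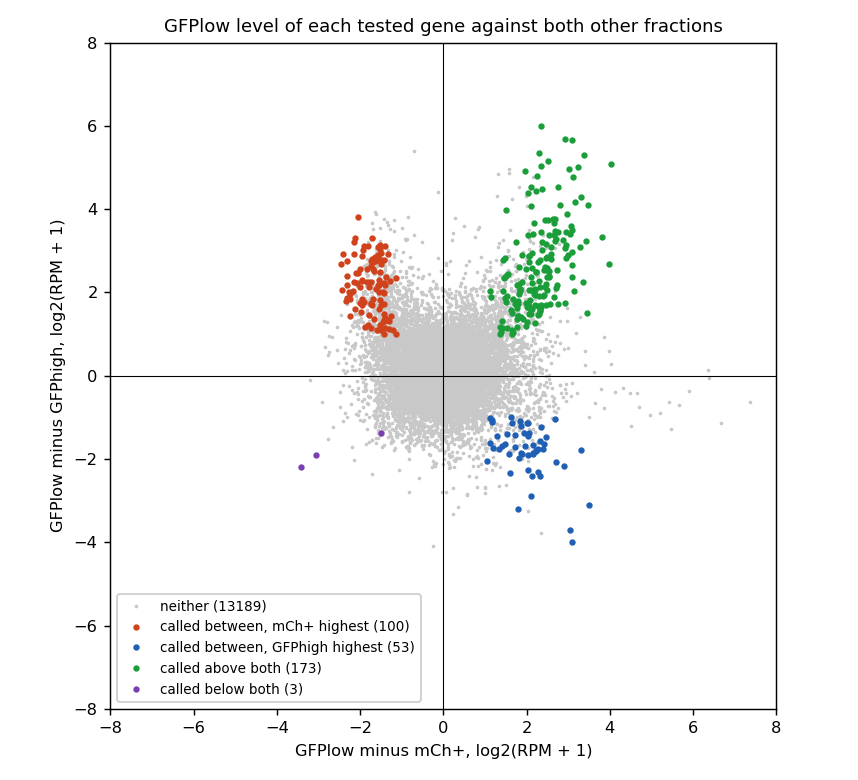
Each point is 1 of 13518 genes, placed by GFPlow minus mCh+ (horizontal) and GFPlow minus GFPhigh (vertical) on the log2(RPM + 1) scale, with called genes in colour. The 173 genes above both lie in the upper right quadrant, the 3 below both lie at the lower left, and the 53 and 100 genes called between lie in the other 2 quadrants.

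The most common place of GFPlow was nevertheless between the others. By the order of the means alone, with no test, GFPlow was between for 6599 genes (48.8%), above for 3896 (28.8%) and below for 3023 (22.4%). Both GFPlow libraries were above every mCh+ and GFPhigh library for 2120 genes (15.7%) and below every one for 1168 (8.64%), so a gene without overlap is not by itself a call. Among the 5776 genes whose 3 means spanned more than 1 on the log2 scale, GFPlow was the middle fraction for 61.6%, against 17.4% for mCh+ and 21% for GFPhigh. Where the span passed 2 (1772 genes), GFPlow was in the middle for 75.8%, highest for 22% and lowest for 2.2%. With the same outside rule, mCh+ was above both others for 184 genes and below both for 297, and GFPhigh for 228 and 583. The 173 genes above both in GFPlow were thus close in number to those of each other fraction, while the 3 below both were fewer by far, a contrast given as counts without a test of their difference. The fractions also differed in power and in the scatter of their means, since mCh+ had 1 library and the GFPlow libraries were the deepest. This limits the shares of middle places above as well as the called counts.

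The 173 genes above both had a median difference of 2.36 from the midpoint (range 1.19 to 4.56). For 135 of them mCh+ and GFPhigh lay within 1 of each other on the log2 scale, so that GFPlow stood over a pair of similar levels. GFPhigh was lower than mCh+ by more than 1 in 32 and higher in 6. In the 151 genes with at least 1 RPM in both other fractions, the GFPlow mean was a median of 4.83-fold over mCh+ and 4.93-fold over GFPhigh. Of the 173 genes, 13 reached 1 RPM in the GFPlow libraries alone, as did 39 of the 530 higher than the midpoint, and such genes entered the test only through the fraction in which they were high. The median absolute log2 difference over all tested genes was 0.345 between the GFPlow libraries and 0.359 between the GFPhigh libraries. Library 1 of GFPlow was over library 2 in 126 of the 173 (72.8%), against 49.8% of all tested genes, by a median of 0.19 on the log2 scale.

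The 8 genes with the widest gap to the midpoint, among those above both with at least 20 RPM in GFPlow, were gpnmb, cmklr1, gda, lgals9l1, stoml3, fabp4a, ctsl.1 and adgrg3. gpnmb, a transmembrane glycoprotein of lysosome-rich macrophages and pigment cells, had 157 and 159 RPM in GFPlow, against 8.7 RPM in mCh+ and 9.5 and 1.1 RPM in GFPhigh (difference 4.56 ± 0.58 SE, adjusted p = 0.0028). cmklr1, the receptor for the leukocyte attractant chemerin, had 160 and 202 RPM in GFPlow, 20.2 RPM in mCh+ and 2.24 and 2.88 RPM in GFPhigh (4.38 ± 0.26, adjusted p = 3.96e-05). Its GFPlow mean was 8.95-fold that of mCh+ and 70.6-fold that of GFPhigh, so the level in mCh+ was itself well over that in GFPhigh.

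gda encodes guanine deaminase, which converts guanine to xanthine. It had 545 and 428 RPM in GFPlow, 45.4 RPM in mCh+ and 11.3 RPM in both GFPhigh libraries (4.34 ± 0.21, adjusted p = 1.49e-05), 10.7-fold and 42.9-fold over mCh+ and GFPhigh. ctsl.1, a cathepsin L, had 76.9 and 74.3 RPM in GFPlow, 8.5 RPM in mCh+ and 1.39 and 1.52 RPM in GFPhigh (3.99 ± 0.30, adjusted p = 0.000122). In both, the GFPlow libraries lay several-fold beyond every other library. fabp4a, a fatty acid-binding protein known in mammals from fat cells and macrophages, had 52.9 and 26.9 RPM in GFPlow, 3.14 RPM in mCh+ and 0.46 and 0 RPM in GFPhigh (4.11 ± 0.42, adjusted p = 0.000492). The differences of genes so near 0 depend on the 1 RPM added before the logarithm. lgals9l1 (a galectin), stoml3 (a stomatin-like membrane protein) and adgrg3 (an adhesion G protein-coupled receptor) differed from the midpoint by 4.30 ± 0.35, 4.18 ± 0.30 and 3.94 ± 0.30, with adjusted p between 0.000103 and 0.000158. For all 8 genes GFPhigh had the lowest mean of the 3 fractions.

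**Figure D2:**
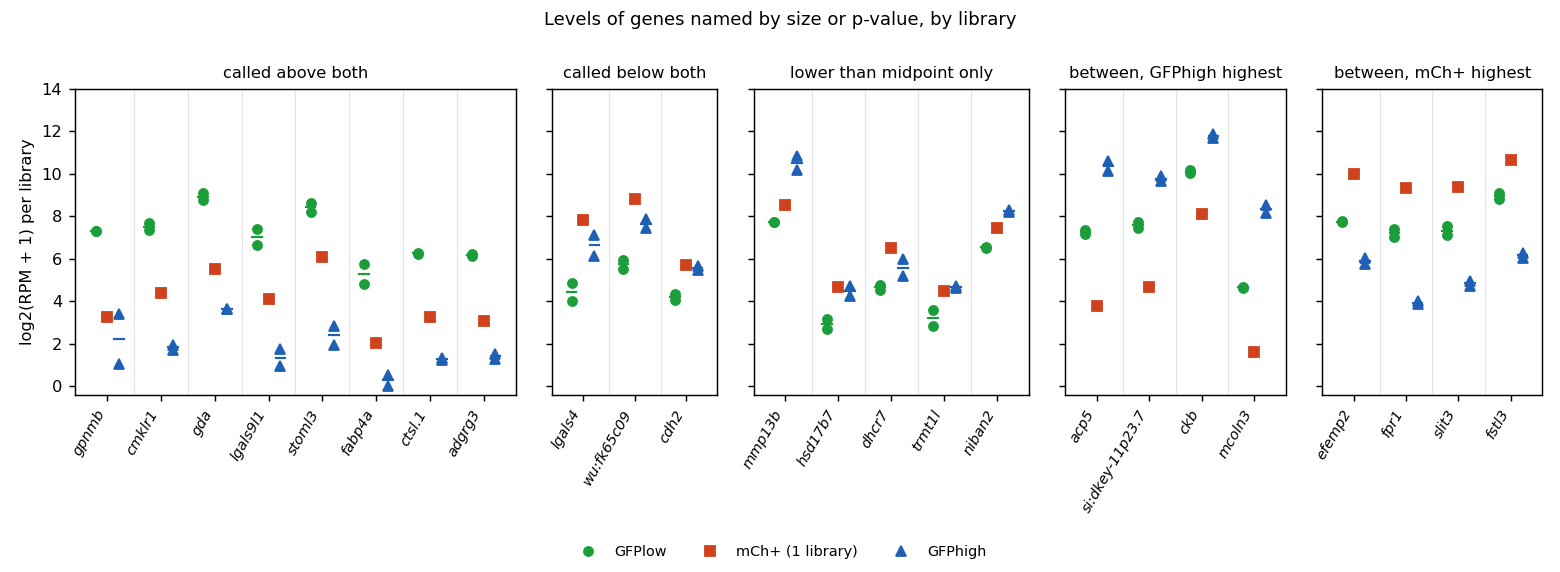
Level of 24 genes, log2(RPM + 1), in each of the 5 distinct libraries, with GFPlow as circles, mCh+ as squares, GFPhigh as triangles and a short line at the mean of each pair. GFPlow is over every other library for the 8 genes above both, under every other library for the 3 below both and the 5 lower than the midpoint only, and inside the range for the 8 genes between. For the genes above, below and lower, the absence of overlap was a condition of their choice.

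Macrophage markers formed the densest group above both. Of 22 tested markers, 17 were higher than the midpoint (77.3%, beside 3.92% of all tested genes) and 12 were above both fractions (54.5%, beside 1.28%). None was lower, and the median difference from the midpoint was 2.12, beside 0.04 over all tested genes. The summed level of the list was 11612 and 9815 RPM in GFPlow, 1763 RPM in mCh+, and 2255 and 2440 RPM in GFPhigh. The protease gene lgmn held much of that sum, and the other 21 markers summed to 3063 and 2747 RPM in GFPlow, 780 RPM in mCh+, and 1656 and 1972 RPM in GFPhigh. The order of the fractions was thus the same with and without it, with GFPlow highest, while the gap to GFPhigh narrowed.

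lgmn encodes legumain, an asparaginyl endopeptidase of the lysosome. It had 8549 and 7069 RPM in GFPlow, 984 RPM in mCh+ and 599 and 468 RPM in GFPhigh (3.43 ± 0.15, adjusted p = 1.49e-05), 7.94-fold over mCh+ and 14.6-fold over GFPhigh. marco, a scavenger receptor of macrophages that binds bacteria, had 251 and 210 RPM in GFPlow, 27.2 RPM in mCh+ and 21 and 20.3 RPM in GFPhigh (3.22 ± 0.21, adjusted p = 5.21e-05). Both genes separated the GFPlow libraries from all others without overlap. mpeg1, the perforin-like gene used to mark zebrafish macrophages, was listed under 3 gene IDs, of which 2 were tested and did not behave alike, and ENSDARG00000078569 was listed at 0 in all 5 libraries. ENSDARG00000055290 had 17.4 and 15.9 RPM in GFPlow, 1.94 RPM in mCh+ and 1.47 and 1.18 RPM in GFPhigh and was above both, whereas ENSDARG00000043093 had 55.5 and 117 RPM in GFPlow, 167 RPM in mCh+ and 19.2 and 14 RPM in GFPhigh and was not called (0.60, adjusted p = 0.394). The values of near-identical copies depend on how shared reads were assigned, which the sources used here do not give, and how alike these copies are was not examined.

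Some markers that macrophages share with the OC lineage were not above both. csf1ra, the M-CSF receptor of macrophages, OCs and xanthophores, had 176 and 197 RPM in GFPlow, 32.8 RPM in mCh+ and 173 and 201 RPM in GFPhigh, a range that overlapped GFPhigh. spi1 (ENSDARG00000000767), a copy of the PU.1 transcription factor of myeloid cells, had 593 and 554 RPM in GFPlow, 108 RPM in mCh+ and 713 and 779 RPM in GFPhigh, higher than the midpoint (1.01 ± 0.15, adjusted p = 0.00377) with GFPhigh highest. Its other copy spi1a was above both, with 140 and 107 RPM in GFPlow, 25.5 RPM in mCh+ and 5.33 and 4.06 RPM in GFPhigh (3.33 ± 0.27, adjusted p = 0.000152). The PU.1 copies thus took different places, inside and outside the range of the other fractions. mpeg1 and csf1ra were singled out after their values were seen, as were the genes below that are given without an adjusted p, apart from those that the study followed as markers.

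Enzymes of the lysosome and its proton pump took different places, a difference between lists that was not itself tested. Of 58 lysosomal proteases and hydrolases, 24 were higher than the midpoint (41.4%, beside 3.92% of all tested genes) and 14 above both (24.1%, beside 1.28%). None was lower, and the median member was 1.38 above mCh+ and 0.54 above GFPhigh on the log2 scale, with 42 of 58 means over GFPhigh. Of 22 V-ATPase subunits, limma called none against the midpoint (1 was higher at an unadjusted p under 0.05 with a difference past 1). None was above both and 5 were between with GFPhigh highest (22.7%, beside 0.392% of all tested genes). Their median was 1.91 above mCh+ but 0.90 below GFPhigh, and only 2 of 22 means were over GFPhigh. The V-ATPase median against the midpoint was 0.44 on the log2 scale and turned to −0.20 when the midpoint was taken on the RPM scale, whereas that of the hydrolases was 0.99 and 0.76 on these scales.

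The 14 above both took in proteases (lgmn, ctsl.1, ctss2.1, ctss2.2, ctsz and ctsa), enzymes of lipid breakdown (lipa, asah1, smpd1 and the activator psap), the cholesterol carrier npc2, the nuclease dnase2, the fucosidase fuca1 and the acid phosphatase acp2. Some genes, such as lgmn and ctss2.2, stand on more than 1 list and were counted in each. ctss2.2, a cathepsin S that trims antigens for presentation, had 312 and 310 RPM in GFPlow, 35.6 RPM in mCh+ and 45.2 and 51.2 RPM in GFPhigh (2.88 ± 0.19, adjusted p = 5.21e-05). ctsz, the lysosomal carboxypeptidase cathepsin Z, had 2767 and 2420 RPM in GFPlow, 516 RPM in mCh+ and 784 and 966 RPM in GFPhigh. psap, the precursor of the saposins that assist lipid breakdown, had 629 and 432 RPM in GFPlow, 129 RPM in mCh+ and 224 and 200 RPM in GFPhigh. These 3 were above both. The aspartic protease ctsd was higher than the midpoint but not above both, with 3371 and 2662 RPM in GFPlow, 504 RPM in mCh+ and 1595 and 1786 RPM in GFPhigh. The collagen-degrading ctsk of OCs was instead highest in GFPhigh, with 2949 and 3522 RPM in GFPlow, 1719 RPM in mCh+ and 8408 and 9433 RPM in GFPhigh, and was not called against the midpoint (−0.28 ± 0.13, adjusted p = 0.295).

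The pump followed ctsk rather than lgmn in its order. atp6v0c (ENSDARG00000057853), of the membrane ring, had 3261 and 2513 RPM in GFPlow, 714 RPM in mCh+ and 6526 and 6024 RPM in GFPhigh. tcirg1 (ENSDARG00000105142), the a3 subunit gene whose loss causes osteopetrosis in humans, had 1465 and 1838 RPM in GFPlow, 427 RPM in mCh+ and 3692 and 4975 RPM in GFPhigh. Both were called between, and the GFPlow libraries lay apart from the libraries on either side.

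Genes of engulfment and of the phagocyte oxidase were above both in 9 of 31 tested phagocytosis genes (29.0%, beside 1.28% of all tested genes), and 12 were higher than the midpoint (38.7%, beside 3.92%), with none lower and a median of 0.66, while 2 were between with GFPhigh highest and 1 between with mCh+ highest. Those above both included the engulfment and scavenger receptors havcr1, marco, mrc1 and mrc1b, and cybb and cyba, which form the membrane core of the NADPH oxidase that makes superoxide in the phagosome. The catalytic subunit cybb had 105 and 85.2 RPM in GFPlow, 22.3 RPM in mCh+ and 8.34 and 8.13 RPM in GFPhigh, and its partner cyba 107 and 86.1 RPM in GFPlow, 34 RPM in mCh+ and 11.8 and 13.6 RPM in GFPhigh. For both genes the order was GFPlow, then mCh+, then GFPhigh, with no overlap between fractions.

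Of 15 tested antigen presentation genes 5 were above both (33.3%, beside 1.28% of all tested genes), namely ctss2.2, ctss2.1, irf8, cd74a and cd74b, and none was lower than the midpoint. cd74a, the invariant chain that guides class II molecules, had 318 and 280 RPM in GFPlow, 68.5 RPM in mCh+ and 49.2 and 64.8 RPM in GFPhigh (2.24 ± 0.20, adjusted p = 0.000227). ctss2.1 and ctss2.2, and cd74a and cd74b, are named as copies of a gene. Whether their sequences are alike enough to share reads was not examined.

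Of 35 tested myeloid transcription factors, 8 were higher than the midpoint (22.9%, beside 3.92% of all tested genes), with none lower and a median of 0.28. Those above both were 5 (14.3%, beside 1.28%), namely tfec, spi1a, mafbb, irf8 and cebpa. tfec, of the MiT family that drives lysosomal and pigment genes, had 56.1 and 63.0 RPM in GFPlow, 7.69 RPM in mCh+ and 3.78 and 1.6 RPM in GFPhigh (3.45 ± 0.35, adjusted p = 0.000462). cebpa, a factor of granulocyte and monocyte commitment, had 455 and 488 RPM in GFPlow, 131 RPM in mCh+ and 111 RPM in both GFPhigh libraries (1.96 ± 0.16, adjusted p = 0.000173). irf8, which directs monocyte and macrophage fate and restrains OC formation in mice, had 75.7 and 63.8 RPM in GFPlow, 16.1 RPM in mCh+ and 7.65 and 9.73 RPM in GFPhigh. For all 3 the GFPlow libraries lay several-fold over the rest. nfatc1, the factor that RANKL induces to complete OC differentiation, was not above mCh+, with 118 and 119 RPM in GFPlow, 124 RPM in mCh+ and 406 and 284 RPM in GFPhigh (−0.79 ± 0.20, adjusted p = 0.0529).

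Of 38 interleukin and TNF family genes and receptors, 5 were higher than the midpoint (13.2%, beside 3.92% of all tested genes) and 4 above both (10.5%, beside 1.28%). The interleukin 10 receptor chain il10ra had 57.4 and 56.1 RPM in GFPlow, 3.14 RPM in mCh+ and 6.8 and 3.22 RPM in GFPhigh (3.57 ± 0.35, adjusted p = 0.000378), and the inflammatory cytokine il1b had 130 and 108 RPM in GFPlow, 26.5 RPM in mCh+ and 26.0 and 23.4 RPM in GFPhigh (2.17 ± 0.22, adjusted p = 0.000482). Both the cytokine and the receptor for an anti-inflammatory one were thus above both fractions. Of 23 chemokines and receptors 7 were higher (30.4%, beside 3.92% of all tested genes) and 3 above both (13%, beside 1.28%), among them cxcl19 at 13.8 and 12.4 RPM in GFPlow and 0.67 RPM in mCh+, with both GFPhigh libraries under the level of 3 reads, a gene that passed the filter through GFPlow alone and is given as a description. ccl35.1 was higher than the midpoint (3.47 ± 0.38, adjusted p = 0.000792) but missed the rule for above both (adjusted p = 0.0599), with 159 and 119 RPM in GFPlow, 30.0 RPM in mCh+ and 2.16 and 7.03 RPM in GFPhigh. Of 16 complement and coagulation genes 3 were higher (18.8%, beside 3.92%) and 1, the anaphylatoxin receptor c5ar1, was above both (6.25%, beside 1.28%), also after passing the filter through GFPlow alone. At an unadjusted limma p under 0.05 with a difference past 1, 8 of the 16 were higher and 3 lower. With a filter of 5 RPM, 8 were tested and none was above both.

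Of 42 genes of the Toll-like receptor and NF-kB pathway 6 were higher than the midpoint (14.3%, beside 3.92% of all tested genes) and 3 above both (7.14%, beside 1.28%). nfkbie, an inhibitor of NF-kB, had 528 and 618 RPM in GFPlow, 178 RPM in mCh+ and 241 and 318 RPM in GFPhigh (1.36 ± 0.18, adjusted p = 0.00216). acod1, which makes itaconate in activated macrophages, was higher than the midpoint (3.17 ± 0.31, adjusted p = 0.000395) and just outside the rule for above both (adjusted p = 0.0511), with 59.3 and 65.7 RPM in GFPlow, 17.0 RPM in mCh+ and 2.32 and 1.27 RPM in GFPhigh. Of 28 interferon response genes 3 were higher (10.7%, beside 3.92%), such as xaf1 (1.81 ± 0.27, adjusted p = 0.00378), and none was above both. Most genes of these pathways were not called in either direction.

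Of 38 lipid handling and cholesterol genes 14 were higher than the midpoint (36.8%, beside 3.92% of all tested genes) and 6 above both (15.8%, beside 1.28%), none was lower, and 1 was between with mCh+ highest. The list leaves out hsd17b7 and dhcr7, enzymes of cholesterol synthesis that were lower than the midpoint, as given below. apoeb, an apolipoprotein E, had 7488 and 4579 RPM in GFPlow, 1487 RPM in mCh+ and 989 and 1005 RPM in GFPhigh (2.26 ± 0.19, adjusted p = 0.000185), and npc2 (ENSDARG00000096979), the cholesterol carrier of the lysosome lumen, had 66.6 and 70.8 RPM in GFPlow, 9.83 RPM in mCh+ and 6.49 and 6.35 RPM in GFPhigh (2.96 ± 0.26, adjusted p = 0.000227). The GFPlow replicates of apoeb differed by more than those of npc2 but both lay above every other library. The ferritin heavy chain fth1a had 3630 and 3494 RPM in GFPlow, 767 RPM in mCh+ and 950 and 1262 RPM in GFPhigh and was also above both, as was grna, a granulin of the lysosome, with 3180 and 2054 RPM in GFPlow, 463 RPM in mCh+ and 680 and 456 RPM in GFPhigh.

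Of 36 lymphoid and hematopoietic surface receptor genes 12 were higher than the midpoint (33.3%, beside 3.92% of all tested genes). Only cd9b was above both (2.78%, beside 1.28%), with 332 and 286 RPM in GFPlow, 105 RPM in mCh+ and 48.4 and 64.1 RPM in GFPhigh (1.99 ± 0.20, adjusted p = 0.000428). cd9b encodes a tetraspanin. hck, a Src-family kinase of myeloid cells, was higher than the midpoint (2.27 ± 0.28, adjusted p = 0.00155) with an adjusted p of 0.0632 for above both. The remaining 121 of the 173 genes above both were in none of the 38 lists.

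**Figure D3:**
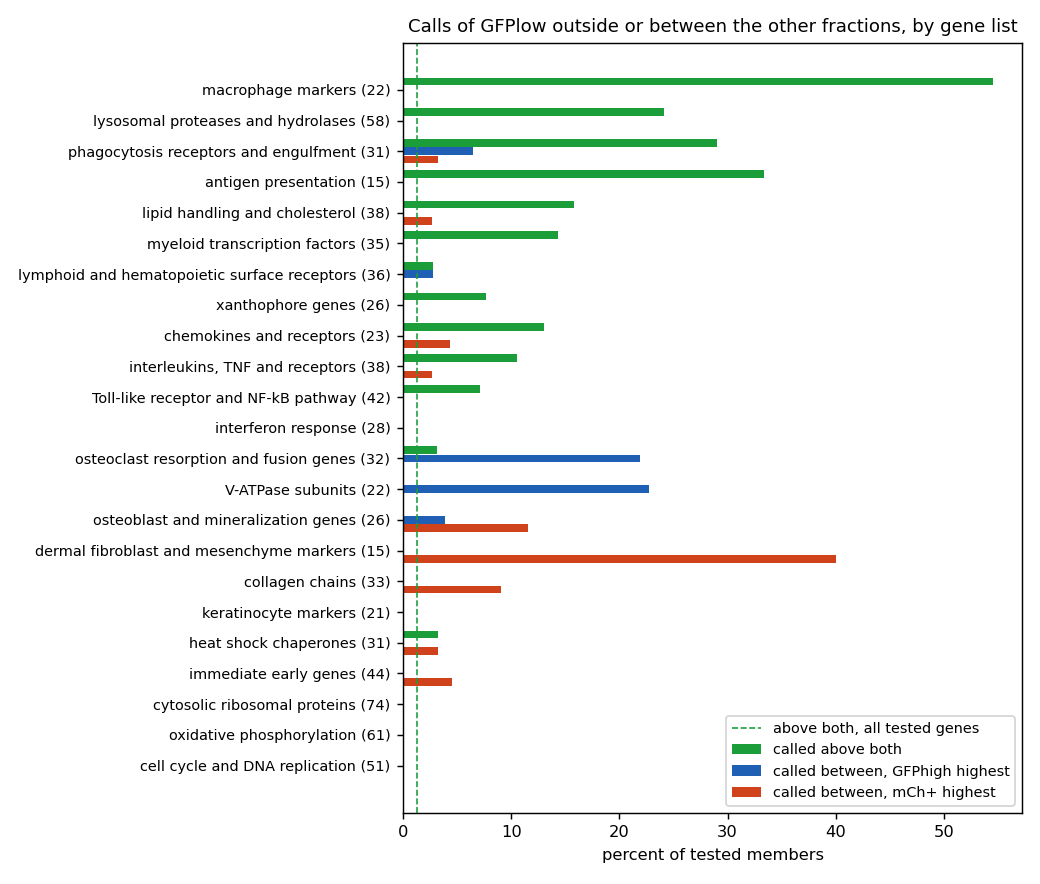
For 23 gene lists, the percent of tested members (number in brackets) called above both (green), between with GFPhigh highest (blue) and between with mCh+ highest (red), with a dashed line at the 1.28% of all tested genes called above both. Macrophage markers (12 of 22 above both) have the longest green bar, V-ATPase subunits (5 of 22) the longest blue bar and fibroblast markers (6 of 15) the longest red bar, and the lists of ribosomal, oxidative phosphorylation, cell cycle, interferon and keratinocyte genes have none.

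Many genes of yellow pigment cells were higher than the midpoint without lying outside the range. The xanthophore list holds genes that make or carry the pteridine and carotenoid pigments of these cells, and others such as gpnmb. Of its 26 tested genes, 13 were higher than the midpoint (50%, beside 3.92% of all tested genes, median 1.21). Only 2, gda and gpnmb, were above both (7.69%, beside 1.28%). All 13 were more than 1 above mCh+ on the log2 scale, and 10 were within 1 of GFPhigh. gch2, the GTP cyclohydrolase that starts pteridine synthesis, had 326 and 309 RPM in GFPlow, 0.94 RPM in mCh+ and 596 and 406 RPM in GFPhigh (3.36 ± 0.21, adjusted p = 4.22e-05), and aox5, an aldehyde oxidase of xanthophores, had 316 and 446 RPM in GFPlow, 9.23 RPM in mCh+ and 670 and 728 RPM in GFPhigh. GFPlow was therefore under GFPhigh for both. When the midpoint was taken on the RPM scale, only 2 of the 26 remained higher than it.

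The melanophore and iridophore lists held 13 and 10 tested genes with 2 higher than the midpoint in each (15.4% and 20%, beside 3.92% of all tested genes). gpr143, a receptor of pigment organelles, had 38 and 47.9 RPM in GFPlow, 0.74 RPM in mCh+ and 59.9 and 54.1 RPM in GFPhigh (2.12 ± 0.26, adjusted p = 0.0014). slc45a2, a melanosome transporter, had 18.1 and 22.6 RPM in GFPlow, 0.07 RPM in mCh+ and 18.8 and 33.5 RPM in GFPhigh (2.0 ± 0.35, adjusted p = 0.00926). Both were near 0 in mCh+ and overlapped or approached GFPhigh. Of the 530 genes higher than the midpoint, 35 had a GFPlow mean between the other fractions, 27 of them with GFPhigh highest and 8 with mCh+ highest, and 9 were on the xanthophore list. A midpoint taken as the mean of logarithms lies far below the higher fraction when the other is near 0, so a gene can pass it without leaving the range.

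**Figure D4:**
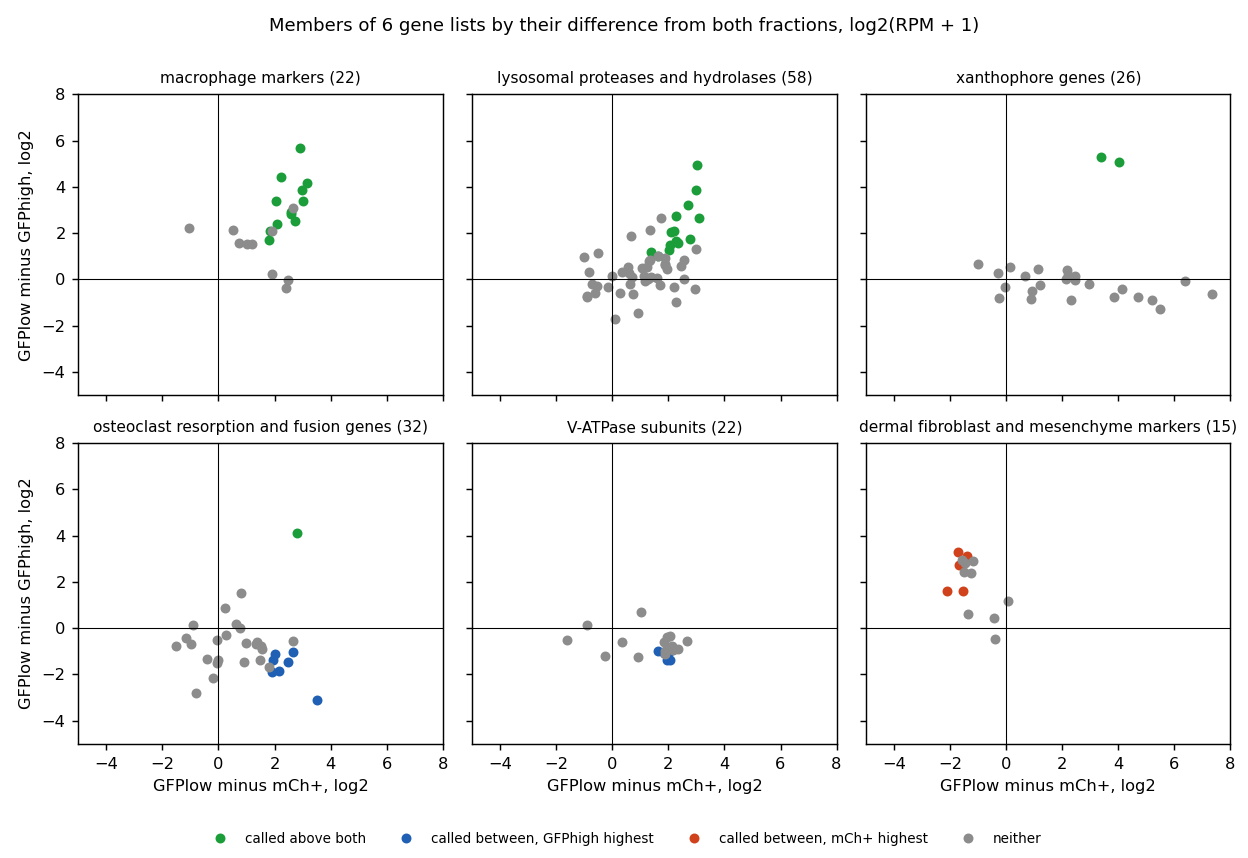
GFPlow minus mCh+ (horizontal) and GFPlow minus GFPhigh (vertical), both on the log2(RPM + 1) scale, for the tested members of 6 gene lists, with called genes in colour and the others in grey. Most macrophage markers lie in the upper right quadrant, most xanthophore genes and V-ATPase subunits (medians 1.91 and −0.90) to the right near or under the level of GFPhigh, and most fibroblast markers in the upper left quadrant.

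Genes lower than the midpoint were few, and all 33 had a GFPlow mean below both other fractions. The 3 called below both were lgals4, wu:fk65c09 and cdh2. lgals4, a galectin known in mammals from gut epithelium, had 27.9 and 15.0 RPM in GFPlow, 228 RPM in mCh+ and 140 and 68.0 RPM in GFPhigh (−2.80 ± 0.35, adjusted p = 0.00155), 10.6-fold under mCh+ and 4.85-fold under GFPhigh. wu:fk65c09 had 45.3 and 60.01 RPM in GFPlow, 445 RPM in mCh+ and 231 and 171 RPM in GFPhigh (−2.49 ± 0.21, adjusted p = 0.000185), 8.45-fold and 3.82-fold under mCh+ and GFPhigh. cdh2 (N-cadherin, an adhesion molecule of mesenchymal and neural cells) had 15.5 and 19.4 RPM in GFPlow, 50.4 RPM in mCh+ and 50.1 and 43.5 RPM in GFPhigh (−1.43 ± 0.24, adjusted p = 0.00855). The GFPlow libraries lay under every other library for all 3, as the rule for naming them required.

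The other genes lower than the midpoint did not pass the rule for below both. mmp13b, a collagenase of OBs and other stromal cells, had 210 and 211 RPM in GFPlow, 372 RPM in mCh+ and 1838 and 1166 RPM in GFPhigh (−1.81 ± 0.20, adjusted p = 0.000761), and mmp9, the gelatinase of OCs and neutrophils, had 926 and 673 RPM in GFPlow, 901 RPM in mCh+ and 4818 and 2644 RPM in GFPhigh (−1.18 ± 0.24, adjusted p = 0.0222). For both metalloproteinases the distance to GFPhigh was much larger than that to mCh+, and the mmp9 values of GFPlow enclosed that of mCh+. hsd17b7 and dhcr7, enzymes of cholesterol synthesis, differed from the midpoint by −1.63 ± 0.32 (adjusted p = 0.0176) and −1.39 ± 0.28 (adjusted p = 0.02). hsd17b7 had 7.98 and 5.46 RPM in GFPlow, 24.1 RPM in mCh+ and 25.3 and 17.7 RPM in GFPhigh, and dhcr7 had 26.4 and 22.4 RPM in GFPlow, 90.3 RPM in mCh+ and 61.9 and 35.6 RPM in GFPhigh. trmt1l (−1.36 ± 0.32, adjusted p = 0.0414) and niban2 (ENSDARG00000062970, −1.31 ± 0.17, adjusted p = 0.00182) followed. For these 4 genes the GFPlow libraries lay under every other library, which was a condition for naming them and not a finding.

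Of 32 tested resorption and fusion genes of OCs, 7 were between the other fractions with GFPhigh highest (21.9%, beside 0.392% of all tested genes). Of the others, tfec was above both (3.13%, beside 1.28%), and mmp9 and mmp13b were lower than the midpoint (6.25%, beside 0.244%). acp5 (ENSDARG00000019763), the gene of tartrate-resistant acid phosphatase whose upstream sequence drives the GFP of the gate, had 161 and 144 RPM in GFPlow, 12.5 RPM in mCh+ and 1132 and 1538 RPM in GFPhigh. It was 3.50 over mCh+ and −3.11 from GFPhigh on the log2 scale (adjusted p = 0.000543 for the larger of the p-values), so it lay 0.53 of the way along the log2 distance, counted as 0 at mCh+ and 1 at GFPhigh. Since the gate selects on a reporter of this gene, its order among the fractions is a check of the sort and not a finding.

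The brain-type creatine kinase ckb (ENSDARG00000043257), which supplies energy to resorbing OCs, had 1139 and 1030 RPM in GFPlow, 276 RPM in mCh+ and 3271 and 3723 RPM in GFPhigh (adjusted p = 0.00139). mcoln3, a cation channel of endosomes and lysosomes, had 23.9 and 24.6 RPM in GFPlow, 2.07 RPM in mCh+ and 372 and 287 RPM in GFPhigh (adjusted p = 0.00228). The uncharacterised si:dkey-11p23.7 had 207 and 176 RPM in GFPlow, 24.6 RPM in mCh+ and 793 and 933 RPM in GFPhigh (adjusted p = 0.00132). All 3 had positions between 0.45 and 0.57.

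The 4 genes of smallest adjusted p in the other orientation, with mCh+ highest, were efemp2, fpr1, slit3 and fstl3. efemp2, a fibulin of elastic fibres, had 217 and 209 RPM in GFPlow, 1004 RPM in mCh+ and 63.6 and 53.5 RPM in GFPhigh (adjusted p = 0.00243). fpr1, a formyl peptide receptor, had 131 and 170 RPM in GFPlow, 647 RPM in mCh+ and 13.7 and 14.9 RPM in GFPhigh (adjusted p = 0.00568). The guidance ligand slit3 had 137 and 183 RPM in GFPlow, 657 RPM in mCh+ and 25.6 and 29.9 RPM in GFPhigh (adjusted p = 0.00588). fstl3, an inhibitor of activins, took the same order, as did col1a1a, a chain of the type I collagen of bone that the study followed. fstl3 had 443 and 552 RPM in GFPlow, 1583 RPM in mCh+ and 76.5 and 65.1 RPM in GFPhigh (adjusted p = 0.00685), and col1a1a had 732 and 835 RPM in GFPlow, 2594 RPM in mCh+ and 231 and 116 RPM in GFPhigh (adjusted p = 0.0304). For each of these 5 genes the GFPlow libraries lay apart from the libraries on either side.

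Of 15 tested fibroblast and mesenchyme markers 6 were between with mCh+ highest (40%, beside 0.74% of all tested genes) and 13 had a mean between (86.7%, beside 48.8%). limma called none against the midpoint (0 at an unadjusted p under 0.05 with a difference past 1). lum, a proteoglycan of collagen fibrils, had 258 and 267 RPM in GFPlow, 869 RPM in mCh+ and 31.7 and 20.6 RPM in GFPhigh, and dcn of the same family 519 and 526 RPM in GFPlow, 1480 RPM in mCh+ and 74.5 and 60.6 RPM in GFPhigh. Of 33 collagen chains 30 had a mean between, 3 were called between with mCh+ highest (9.09%, beside 0.74% of all tested genes) and 1 was higher than the midpoint (3.03%, under the 3.92% of all tested genes). That gene was col10a1 (ENSDARG00000054753, 2.35 ± 0.41, adjusted p = 0.00926). col10a1 had 273 and 255 RPM in GFPlow, 427 RPM in mCh+ and 10.3 and 2.54 RPM in GFPhigh. GFPlow thus held collagen and stromal transcripts at a level between the OB and OC gates, and the median difference of these lists from the midpoint turned sign with its scale, being 0.57 for the fibroblast list and 0.20 for the collagens on the log2 scale, and −0.57 and −0.51 when the midpoint was taken on the RPM scale.

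The genes that the study followed as markers of OCs and OBs were shown by it in these same libraries, so their values here are no independent evidence of their direction. The study also measured some of them by quantitative PCR of the sorted fractions, and reported osteocalcin (bglap) as enriched in mCh+ there. Of 18 tested gene IDs, acp5 and col1a1a were between, mmp9 was lower than the midpoint and 15 were not called, with a median of −0.30. Ligands and receptor of OC differentiation were not called against the midpoint. tnfsf11 (RANKL) had 8.88 and 9.20 RPM in GFPlow, 13.9 RPM in mCh+ and 3.48 and 6.43 RPM in GFPhigh, and its receptor tnfrsf11a (RANK) 44.7 and 28.6 RPM in GFPlow, 72.3 RPM in mCh+ and 69.2 and 47.6 RPM in GFPhigh. By its PCR the study reported both genes mainly in GFPlow and EV, whereas here neither had its highest mean in GFPlow. The M-CSF gene csf1a had 7.57 and 14.9 RPM in GFPlow, 32.3 RPM in mCh+ and 1.47 and 2.2 RPM in GFPhigh, and il34, another ligand of the same receptor, was called between with 117 and 138 RPM in GFPlow, 340 RPM in mCh+ and 34.9 and 56.7 RPM in GFPhigh. Both csf1a and il34 were thus highest in mCh+, the call having been made only for il34.

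Of 26 tested OB and mineralization genes 2 were higher than the midpoint (7.69%, beside 3.92% of all tested genes), 1 was lower (3.85%, beside 0.244%) and 4 were between. Of those between, 3 were highest in mCh+ (11.5%, beside 0.74%) and 1 in GFPhigh (3.85%, beside 0.392%). sp7, whose medaka upstream sequence drives mCherry, had 0.41 and 2.09 RPM in GFPlow, 5.42 RPM in mCh+ and 0.62 and 0.17 RPM in GFPhigh, and runx2b, a factor of OB commitment, had 5.93 and 3.12 RPM in GFPlow, 14.2 RPM in mCh+ and 3.17 and 2.62 RPM in GFPhigh. alpl, the alkaline phosphatase of mineralising cells, had 11.9 and 12.04 RPM in GFPlow, 28.0 RPM in mCh+ and 10.3 and 7.11 RPM in GFPhigh. None of the 3 was called against the midpoint (adjusted p = 0.666, 0.573 and 0.634). enpp1, which makes the mineralisation inhibitor pyrophosphate, was higher than the midpoint (1.27 ± 0.17, adjusted p = 0.00239), with 349 and 306 RPM in GFPlow, 304 RPM in mCh+ and 60.2 and 58.5 RPM in GFPhigh, and so was level with mCh+.

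Where mCh+ and GFPhigh were far apart, GFPlow stood near the middle. In the 1412 genes with at least 2 between them on the log2 scale, the position of GFPlow had a median of 0.49 (quartiles 0.37 and 0.63), and 1343 (95.1%) were inside the range. The 984 genes high in mCh+ had a median of 0.46 (quartiles 0.36 and 0.57), and the 428 high in GFPhigh one of 0.60 (quartiles 0.42 and 0.78). On the RPM scale these medians were 0.707 and 0.368, so on that scale GFPlow was nearer the lower fraction in both sets. The genes were chosen by the gap between mCh+ and GFPhigh, whose scatter enters both the choice and the position. Over all tested genes the root mean square distance of the GFPlow mean was 0.911 from mCh+, 0.902 from GFPhigh and 0.649 from their midpoint, beside 1.27 between mCh+ and GFPhigh and 0.621 and 0.622 between the replicates of GFPlow and of GFPhigh.

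**Figure D5:**
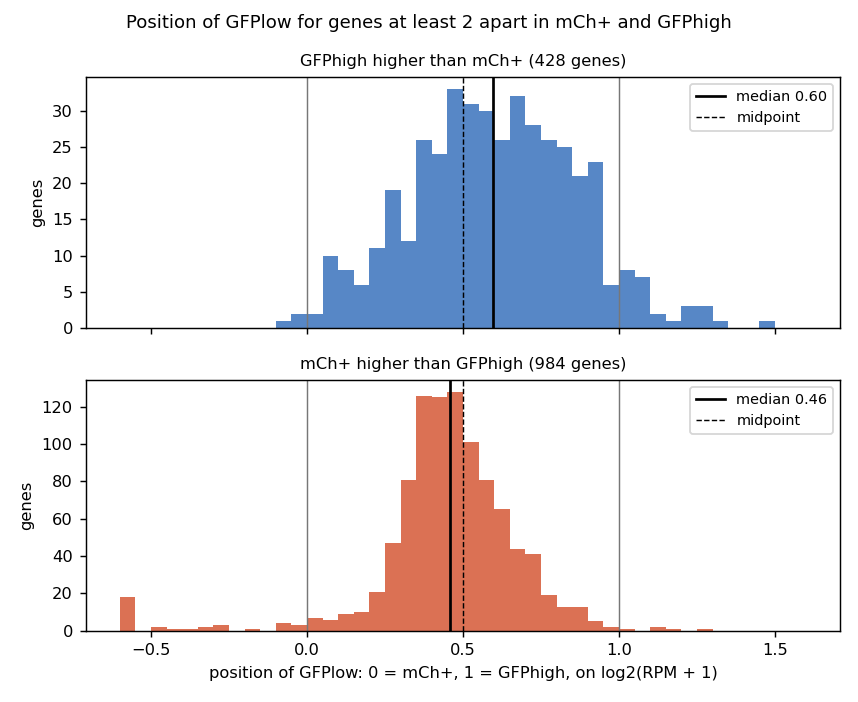
Histogram of the position of GFPlow between mCh+ (0) and GFPhigh (1) on the log2(RPM + 1) scale, for 984 genes high in mCh+ and 428 genes high in GFPhigh. The medians are 0.46 and 0.60, and 18 genes high in mCh+ with a position under −0.6 are drawn in the lowest bin.

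The called between genes, chosen by both differences passing 1, had positions of 0.34 to 0.72 (median 0.53) for the 53 highest in GFPhigh and of 0.31 to 0.62 (median 0.46) for the 100 highest in mCh+. GFPlow library 1 was over library 2 in 34 of the 53 (64.2%) but in 27 of the 100 (27%). Over all tested genes library 1 stood at 0.533 and library 2 at 0.477 of the distance between mCh+ and GFPhigh. Nearly all of their distance to the midpoint lay off that line (99.7% of the squared distance for library 1 and 99.8% for library 2). With positions so near the middle this share is high by construction, and scatter between libraries also falls off a single line. The root mean square distance to the midpoint was 0.732 and 0.706, beside 0.621 between the GFPlow libraries. These distances average over unlike numbers of libraries, so they cannot tell scatter from a trait of GFPlow. The share is therefore not read as such a trait.

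limma called few genes of general cell functions. None of 74 tested cytosolic ribosomal protein genes (median 0.13), 61 oxidative phosphorylation genes (median −0.04) or 51 cell cycle genes (median 0.12) was called against the midpoint, and at an unadjusted p under 0.05 with a difference past 1 the only one was a single cell cycle gene. The oxidative phosphorylation genes lay between as a group, 55 of 61 by the mean, with medians of 0.63 above mCh+ and −0.71 from GFPhigh. Of 44 immediate early genes 1 was higher than the midpoint (2.27%, under the 3.92% of all tested genes), namely gadd45b (ENSDARG00000027744, 1.41 ± 0.19, adjusted p = 0.00283). Of 31 heat shock chaperones 1 was above both (3.23%, beside 1.28%), namely hspb1, with 1125 and 1186 RPM in GFPlow, 529 RPM in mCh+ and 244 and 319 RPM in GFPhigh (1.59 ± 0.16, adjusted p = 0.000492).

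Markers of other cells that such a gate could hold were given the same count. Keratinocyte markers summed to 7853 and 7298 RPM in GFPlow, 9581 RPM in mCh+ and 7470 and 9655 RPM in GFPhigh, with none of 21 called against the midpoint by limma (1 at an unadjusted p under 0.05 with a difference past 1). Neutrophil markers summed to 1044 and 814 RPM in GFPlow, 968 RPM in mCh+ and 4876 and 2750 RPM in GFPhigh, of which mmp9 held most. Without mmp9 the other 7 summed to 118 and 140 RPM in GFPlow, 67.0 RPM in mCh+ and 58.6 and 106 RPM in GFPhigh, with GFPlow highest. Of these 8 neutrophil markers 2 were higher than the midpoint (25%, beside 3.92% of all tested genes), 1 (mmp9) was lower and 6 had their highest mean in GFPlow, with a median of 0.91. The list holds cxcr1, which passed the filter through GFPlow alone. With a filter of 5 RPM, 4 of these markers were tested, of which 1 was higher and 1 lower. Erythrocyte markers summed to 18.8 and 24.6 RPM in GFPlow, 8.02 RPM in mCh+ and 165 and 174 RPM in GFPhigh. Only 3 of their 8 gene IDs were tested, and 1 with a filter of 5 RPM. Of the untested, hbaa1 was at or under 0.34 RPM, alas2 at or under 0.12 RPM and hbaa2 at 0 in all 5 libraries. The sum is therefore no measure of erythrocytes. Glia markers summed to 76.5 and 49.99 RPM in GFPlow, 46.5 RPM in mCh+ and 55.0 and 49.5 RPM in GFPhigh. The B cell sums, over 4 tested of 11 gene IDs, were 111 and 98.7 RPM in GFPlow, 48.5 RPM in mCh+ and 260 and 230 RPM in GFPhigh. The untested cd79a and pax5 were at or under 0.94 and 0.15 RPM. Thrombocyte sums, over 3 tested of 7 gene IDs, were 745 and 753 RPM in GFPlow, 934 RPM in mCh+ and 219 and 171 RPM in GFPhigh. Of these 3, 1 was higher than the midpoint (33.3%, beside 3.92% of all tested genes), while itga2b and mpl were listed at 0 in all 5 libraries. Endothelial markers summed to 72.6 and 49.6 RPM in GFPlow, 46.3 RPM in mCh+ and 19.7 and 15.3 RPM in GFPhigh. Of 10 endothelial markers 3 were higher than the midpoint (30%, beside 3.92% of all tested genes), among them mrc1, which macrophages also make, and tie1 (3.04 ± 0.40, adjusted p = 0.00213) at 22.3 and 16.2 RPM in GFPlow, 4.01 RPM in mCh+ and 0 and 0.42 RPM in GFPhigh, while cdh5 stayed at or under 0.08 RPM. From morphology and expression, the study had already proposed that GFPlow held mainly monocytes and macrophages. The study's microscopy also showed some GFPlow cells with GFP fragments and no diffuse GFP, which appeared to be phagocyte-like cells or mCh+ OBs. By flow cytometry it found most GFPhigh cells to be mCherry-positive as well. From transplantation and imaging, it traced the mCherry of GFP-positive cells to vesicles taken up from OBs. The part that macrophage, stromal and pigment cells within the gate, or such vesicles, had in the genes above both, and in those between, was not tested.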

How the data were processed

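RNA of cells sorted from fractured scales was amplified by Quartz-Seq, a PCR method for polyadenylated RNA without molecular identifiers, and the experiment was done once with 2 biological replicates per fraction. The authors mapped the reads with HISAT2 2.1.0 to GRCz11 and deposited RPM values per gene from Subread 1.6.4, to 2 decimals. Which annotation they used and whether strand was counted is not given in the sources used here, so near-identical copies and antisense genes could share reads. Symbols were looked up for 28988 of 32057 gene IDs, some without a paralog letter. No sequence or position was used.

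limma 3.58.1 (trend, robust) in R 4.3.3 was run on log2(RPM + 1), without further scaling, for 13518 genes with at least 1 RPM in 2 of 5 libraries, with 3 fraction means and 2 residual degrees of freedom (prior median 7.67). The mCh+ fraction, with 1 library, was assumed to vary like the others, and p-values measure the spread between these libraries. Each SE and adjusted p (Benjamini-Hochberg over all tested genes) is from limma. The contrast with the midpoint was called under 0.05 with a log2 difference past 1, and outside and between by the larger p of both pairwise contrasts with both differences past 1. Fold changes are ratios of mean RPM. Named genes were, with a symbol, the 8 of largest midpoint difference above both with at least 20 RPM, the same below both filled with genes lower than the midpoint only, the 4 of smallest adjusted p in each between class with at least 50 RPM in the higher fraction, up to 2 called members per list, and the genes that the study followed. In the first 2 of these groups, filling genes included, both GFPlow libraries had to lie outside the range of all mCh+ and GFPhigh libraries. The 20 RPM applied to GFPlow for genes above both, and to both mCh+ and GFPhigh for the others. Members and lists were chosen with earlier results of these data known. The scripts were tested on simulated data. Alternatives were other scalings (edgeR 4.0.16 for TMM factors only), pseudocounts, filters, midpoints, a replicate block, the EV libraries in the fit and each GFPlow and GFPhigh library left out. Figures were drawn with matplotlib 3.10.9. Some genes are not reported here.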

Additional observations from a re-analysis of the deposited data

Results flagged for a closer look

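The EV libraries were not part of the comparison of the 3 cell fractions. Of the 173 genes above both mCh+ and GFPhigh in GFPlow, 167 (96.5%) had both EV libraries above every mCh+ and GFPhigh library as well, against 2077 (15.4%) of all tested genes. Both EV libraries were above both GFPlow libraries for 68 of the 173 and under both for 42. Since the genes were chosen by their low level in mCh+ and GFPhigh, which enters both sides of this count, it was not tested.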

How the results depend on the processing

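The direction of all 173 genes above both was the same under each alternative in which they were tested (171 with a filter of 5 RPM). This was largely set by their selection, since for all 173 both GFPlow libraries lay over every other library with both differences past 1. It is therefore no measure of robustness, and the calls themselves depended on the replicates. Without each GFPlow and GFPhigh library in turn (mCh+, with 1 library, cannot be left out) the counts ranged from 0 to 523 (higher than the midpoint), 0 to 43 (lower), 0 to 193 (above both), 0 to 4 (below both), 0 to 55 (between, GFPhigh highest) and 0 to 146 (between, mCh+ highest), the share of means between from 44.1% to 49.5% and the median position from 0.46 to 0.51. All 6 counts were 0 without either GFPlow library, where 52 of 76 named genes lost their call and 850 and 902 genes were higher than the midpoint at an unadjusted p under 0.05, and of the 173 genes 154 and 148 were called again without a GFPhigh library. With the EV libraries in the fit the 6 counts, in the same order, were 210, 4, 2, 0, 1 and 0, and with no filter (23466 genes tested) 40, 0, 0, 0, 0 and 0, where 782, 124, 363, 22, 86 and 286, and 934, 212, 461, 39, 114 and 409, had an unadjusted p under 0.05. A pseudocount of 0.1 RPM gave 105 above both and 41 between with mCh+ highest, and one of 5 RPM 19 lower and 164 between with mCh+ highest. Quantile and TMM scaling called 156 and 154 of the 173 again.

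The labels give each fraction replicate numbers 1 and 2, but not whether same-numbered libraries came from the same fish. Same-numbered GFPlow and GFPhigh libraries deviated together only weakly (r = 0.178 over genes, 2 pairs). A correlation over all genes does not settle whether they were pairs, and the main fit left the numbers out. A replicate block gave 821, 174, 335, 19, 113 and 323 genes, so the counts depended on this choice. With that block 82.5% of the midpoint calls were higher, beside 94.1% in the main fit. Chosen after seeing the data, a block with mCh+ as number 2 (its column heading) gave 198 lower, 300 above both, 21 below both, 98 and 265 between, a crossed block 16 lower, 88 above both, 26 and 46 between, and median centring, which moves the median over all genes by −0.11, 52 lower and 81 between with GFPhigh highest.

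A midpoint on the RPM scale lies at or above the one on the log scale by construction. It gave 104 genes lower (530 to 33 became 422 to 104, or 94.1% and 80.2% higher) and turned the midpoint differences of acp5 (−2.14), si:dkey-11p23.7 (−1.21), slit3 (−1.11) and fpr1 (−1.14) from above 0 to below. The share of means between was 46.8% with no filter and 50.4% with a filter of 5 RPM. The median position was 0.52 for genes at least 1 apart, 0.41 at least 4 apart and 0.67 on the RPM scale. The cause of the other shifts was not tested. edgeR and DESeq2 count tests were planned and not run, because the 2-decimal GFPlow values did not meet the criterion for recovering whole reads.

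The limits are 1 mCh+ library without measurable spread, 2 libraries in each other fraction, and counts of calls that rest on both GFPlow libraries. At an estimated 11814593 to 24435511 reads a library, genes that reached 1 RPM in fewer than 2 libraries were not tested.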

Other observations

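Of 41 tetraspanin, annexin and integrin genes 3 were higher than the midpoint (7.32%, beside 3.92% of all tested genes) and cd9b was above both (2.44%, beside 1.28%). tspan36, a tetraspanin known from zebrafish pigment cells, was higher than the midpoint with 687 and 592 RPM in GFPlow, 140 RPM in mCh+ and 299 and 398 RPM in GFPhigh (limma 1.53 ± 0.18, adjusted p = 0.00109). Of 30 genes of RANKL and M-CSF signalling 4 were higher (13.3%, beside 3.92%) and 3 were between. Of those between, 2 were highest in mCh+ (6.67%, beside 0.74%) and 1 in GFPhigh (3.33%, beside 0.392%). f13a1b, a coagulation factor XIII chain that macrophages and thrombocytes make, was higher than the midpoint but level with mCh+, with 575 and 560 RPM in GFPlow, 543 RPM in mCh+ and 113 and 65.0 RPM in GFPhigh (1.39 ± 0.23, adjusted p = 0.00705).

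T and NK cell markers (7 tested), mast cell and eosinophil markers (5), glia (6) and muscle (2) held no gene called against the midpoint by limma, and 2 T and NK cell markers and 2 glia markers had an unadjusted p under 0.05 with a difference past 1. cd22 of B cells was the 1 called of 4 B cell markers, with 8.31 and 10.1 RPM in GFPlow, 1.00 RPM in mCh+ and 3.55 and 4.15 RPM in GFPhigh (1.71 ± 0.37, adjusted p = 0.0273), while cd79b was listed at 0 in all 5 libraries. cxcr1 (ENSDARG00000052088), of the neutrophil list, had 2.58 and 5.42 RPM in GFPlow, while mCh+ (0.20 RPM) and GFPhigh (0 and 0.08 RPM) were at or under the level of 3 reads. It passed the filter through GFPlow alone and is given as a description.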
